A study of Mus musculus with 24 samples.

Results

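Nucleotide excision repair was followed here through 10 genes measured in splenic cells of mice with and without p53. They are Xpc, Ddb1, Ddb2, Xpa, Ercc1, Ercc2, Ercc3, Ercc4, Ercc5 and Ercc6, a fixed list taken by symbol. All 10 were found among the 21671 genes measured, and all 10 passed the filter on low values in every comparison.

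The samples came from C57/Bl6 mice of 8 weeks of age, either Trp53+/+ or Trp53-/-. Mice were left unstressed (mock) or were exposed to 7 Gy of whole-body ionizing radiation (IR) and taken 4 h later. Magnetic beads against B220 split each spleen suspension into B cells, which bind the beads, and non-B cells, which are the rest of the spleen and therefore a mixture. For each cell type and treatment there were 4 Trp53+/+ and 2 Trp53-/- samples, 24 in all. The loss of p53 is in the whole animal, so the cells around those measured lacked p53 too, and the part of Trp53 removed in these mice is not given in the sources used here.

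Expression was given as RPKM, reads per kilobase of gene and per M (mega) reads on exons, a scale on which genes of unequal length can be compared. Cdkn1a, a p53 target that arrests the cell cycle, lay between 69.6 and 97.8 RPKM in the 8 irradiated Trp53+/+ samples and at 2.63 RPKM or less in all Trp53-/- samples. Trp53 itself lay between 21.6 and 41.8 RPKM in Trp53-/- samples, so reads of the gene remained. The summed RPKM of 8 B cell genes was 833 to 1124 in Trp53+/+ B cells and 205 to 517 in Trp53+/+ non-B cells, so non-B cells retained B cell RNA. The corresponding sums were 29.4 to 55.0 (B) and 294 to 555 (non-B) for 8 T cell genes, 303 to 576 and 704 to 1133 for 10 myeloid genes, and 36.7 to 78.9 and 178 to 310.3 for 5 NK cell genes, and no marker was at 0 in all samples of a group. Depth was estimated at 4.69 to 10.99 M (mega) reads, which gave the 10 genes between 151 and 2726 reads per sample. Among 1443 olfactory and vomeronasal receptor genes (chemoreceptor genes), most of which are thought to be silent in these cells, the share above 0 was 5.41% to 9.29% in unstressed samples. In irradiated Trp53+/+ samples it reached 47.3% (B cells) and 51.4% (non-B cells), so several of these libraries stood apart.

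Nucleotide excision repair removes lesions that distort the double helix, such as those made by ultraviolet light, by cutting out a short single strand around them. In the global branch XPC finds the distortion, helped by the damaged-DNA binding complex of DDB1 and DDB2. In the transcription-coupled branch a stalled RNA polymerase recruits CSB, the product of Ercc6. Both branches then use the helicases XPB (Ercc3) and XPD (Ercc2) of the transcription factor TFIIH to open the helix, XPA to check the damage, and the nucleases XPG (Ercc5) and XPF-ERCC1 (Ercc4 and Ercc1) to cut on either side. Some of these genes, Xpc and Ddb2 among them, are known as p53 targets in human cells, and IR makes mainly lesions that other pathways repair.

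In unstressed Trp53+/+ cells of both types, Ddb1 had the highest mean of the 10 genes and Ercc4 the lowest. Ddb1, which is also an adaptor of CUL4 ubiquitin ligases, had 54.7 ± 1.95 RPKM (SD, n = 4) in Trp53+/+ B cells and 53.4 ± 4.77 (SD, n = 4) in non-B cells, a level above that of 95.7% and 96.1% of all genes. The other 9 genes lay between 11.8 and 21.6 RPKM in B cells by group mean. In B cells the samples of Ddb1 stood apart from those of the next gene, Xpa, and those of Ercc1 stood apart from those of Ercc5. Within the series Xpa, Xpc, Ercc2, Ercc6, Ddb2, Ercc3 and Ercc1, and between Ercc5 and Ercc4, each gene's samples overlapped those of its neighbour. In unstressed non-B cells the order was Ddb1, Xpc, Xpa, Ddb2, Ercc3, Ercc2, Ercc6, Ercc1, Ercc5 and Ercc4, and Ddb1 and Xpc were each apart from the next gene, all later neighbours overlapping. Ddb1 was the highest in unstressed Trp53-/- cells too, whereas the lowest was Ercc5 in B cells (10.8 RPKM, apart from Ercc4 at 12.3 RPKM) and Ercc4 in non-B cells (13.4 RPKM, overlapping Ercc1). Over the 24 samples, the highest value was between 1.47 times the lowest for Ercc3 and 4.49 times the lowest for Ercc5.

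**Figure D1:**
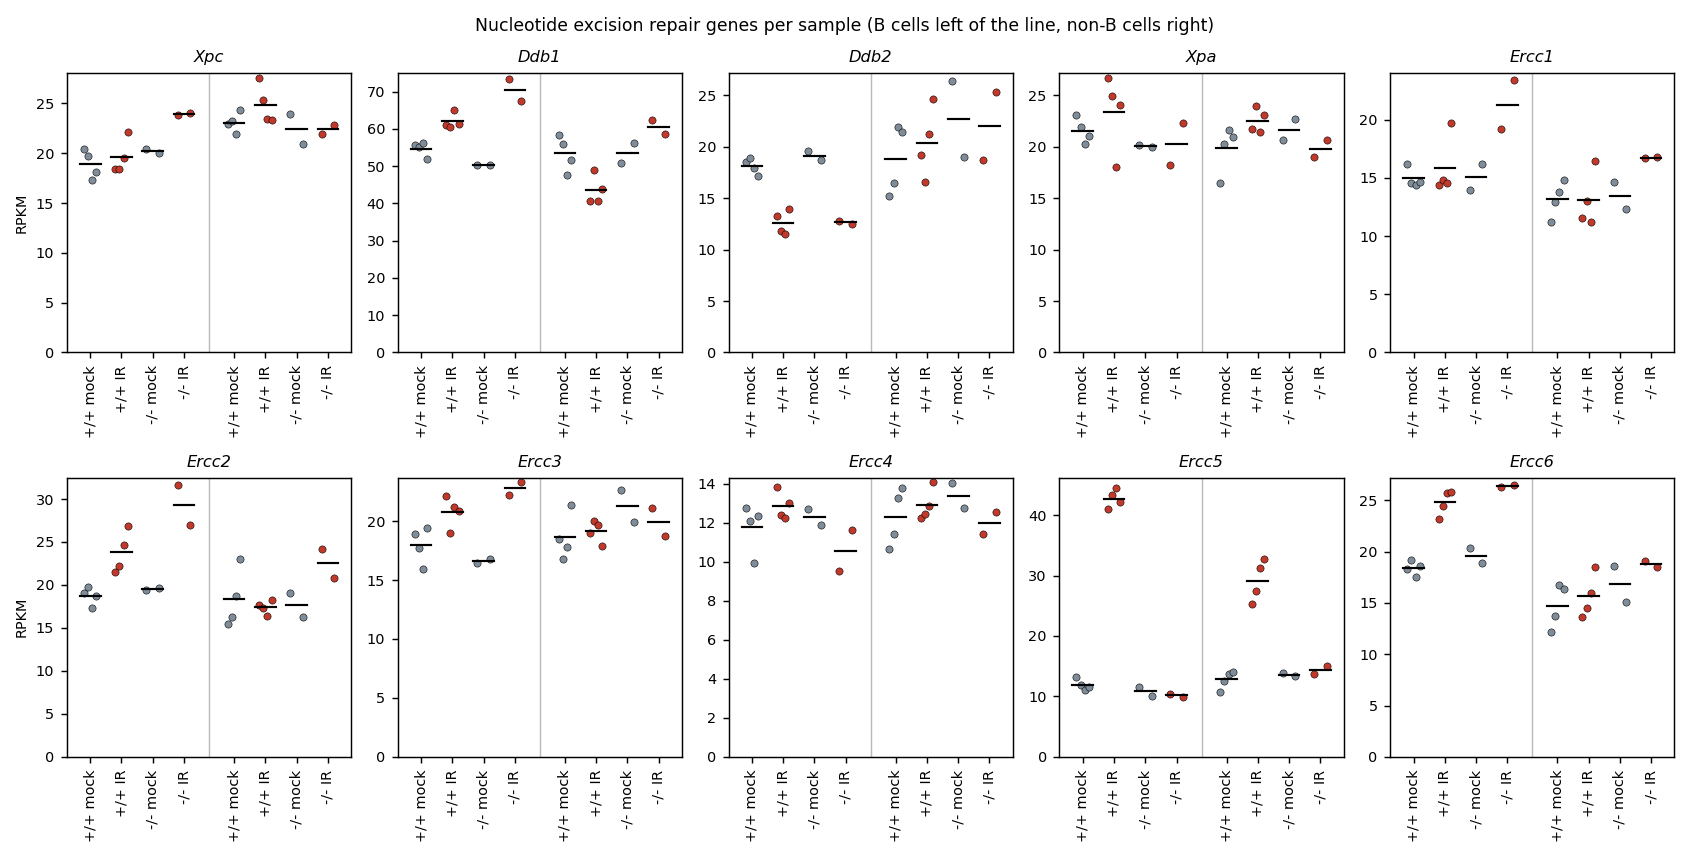
RPKM of the 10 nucleotide excision repair genes in every sample, 1 panel per gene, with the vertical axis from 0. Points are samples (grey unstressed, red 4 h after 7 Gy) and horizontal bars are group means of 4 Trp53+/+ (+/+) or 2 Trp53-/- (-/-) samples; in the panel of Ercc5 the irradiated +/+ samples lie between 25.2 and 44.5 RPKM and all other samples at 15.1 or less.

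The first question was whether irradiated Trp53+/+ B cells changed the repair genes, and it was tested with limma on log2(RPKM + 0.5) over 13821 genes. Below, a gene is said to rise or fall when its Benjamini-Hochberg adjusted p was under 0.05, and is called a DEG when its log2 fold change also exceeded 0.58 in size, the thresholds of the study. Log2 fold changes are on the scale with the added 0.5, which understates the change of low genes. Ercc5, Ercc6, Ercc2, Ercc3 and Ddb1 rose, Ddb2 fell, and Xpc, Xpa, Ercc1 and Ercc4 did not pass. The 5 of 10 that rose compare with 25.4% of all genes tested, and the 1 that fell with 25.8%. Only Ercc5 was a DEG, beside 24.7% of all genes. The median log2 fold change of the 10 genes was 0.15, beside 0.01 for all genes.

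Ercc5, the nuclease XPG that cuts on the 3′ side of the lesion, had 13.2, 11.96, 11.1 and 11.6 RPKM in the unstressed Trp53+/+ B samples and 41.1, 43.3, 44.5 and 42.1 RPKM in the irradiated ones. Every irradiated sample was far above every unstressed one, and the samples of each group lay close together. The log2 fold change was 1.80 ± 0.071 (SE), a 3.48-fold rise, with an adjusted p of 1.6e-09 from limma. In irradiated B cells Ercc5 became second only to Ddb1 among the 10 genes, and its samples were apart from those of both neighbours in that order.

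Ercc6, the ATPase that starts transcription-coupled repair, had 18.3, 19.2, 17.6 and 18.6 RPKM unstressed and 23.2, 24.4, 25.8 and 25.8 RPKM irradiated. The groups did not overlap, and the log2 fold change was 0.42 ± 0.058 (SE, adjusted p = 7.1e-05 in limma). Ercc2, the TFIIH helicase that opens the helix from 5′ to 3′, had 19.02, 19.7, 17.3 and 18.7 RPKM unstressed and 21.5, 22.2, 24.6 and 26.8 RPKM irradiated. Its groups did not overlap either (log2 fold change 0.34 ± 0.080 SE, adjusted p = 0.004 in limma). Ercc3, the second helicase subunit of TFIIH, had 18.9, 17.7, 15.9 and 19.4 RPKM unstressed and 22.1, 18.9, 21.2 and 20.9 RPKM irradiated. Its groups overlapped, and its log2 fold change of 0.20 (limma adjusted p = 0.034) did not pass when unstressed replicate 2 or 3 or irradiated replicate 1, 3 or 4 was left out (0.15 to 0.20, adjusted p = 0.059 to 0.1). The Ercc3 gene is on chromosome 18, and it is the only member of the list there.

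Both subunits of the damage-binding complex passed, in opposite directions. Ddb2, which holds the lesion, fell from 18.5, 18.9, 17.9 and 17.1 RPKM to 13.2, 11.8, 11.5 and 13.9 RPKM, with every irradiated sample below every unstressed one. The log2 fold change was -0.51 ± 0.074 (SE), with an adjusted p of 0.00011 from limma. Ddb1 had 55.6, 55.2, 56.2 and 51.9 RPKM unstressed and 61.1, 60.5, 65.1 and 61.3 RPKM irradiated, also without overlap (log2 fold change 0.18 ± 0.051 SE, adjusted p = 0.011 in limma). Ddb2 lies on the minus strand of chromosome 2 (mm9, 91051729 to 91077139), and 652 bases of its exons, or 23.8%, are also exons of Acp2 on the other strand. Since the library kit does not mark strand, the reads in the shared stretch cannot be divided between both genes. Whether such reads were counted for either gene was not tested. Acp2, a lysosomal phosphatase, had 24.3, 23.1, 28.1 and 24.1 RPKM unstressed and 23.4, 16.6, 17.2 and 16.2 RPKM irradiated, and it fell too (log2 fold change -0.44, adjusted p = 0.026 in limma).

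The remaining members had small differences in Trp53+/+ B cells, each with an interval of the log2 fold change that spanned 0. For Xpc, the sensor of the global branch, it was 0.05 (95% confidence interval -0.11 to 0.22). For Xpa, which checks the opened site, it was 0.10 (-0.14 to 0.34), and it passed only when irradiated replicate 3, the lowest at 18.0 RPKM, was left out (0.22, adjusted p = 0.039 in limma). For Ercc1 it was 0.07 (-0.16 to 0.30), and for its partner Ercc4 it was 0.13 (-0.08 to 0.33). Counted without any model, 4 of the 10 genes had all irradiated samples above all unstressed ones, beside 22.9% of all genes, and 1 had them all below, beside 23.3%.

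In Trp53-/- B cells, Ercc5 did not pass, and all 5 other genes that had changed in Trp53+/+ B cells passed in the same direction. Ercc5 had 11.6 and 10.05 RPKM unstressed and 10.4 and 9.91 RPKM irradiated, with overlapping groups and a log2 fold change of -0.08 (95% confidence interval -0.30 to 0.13). Ercc2, Ercc1, Ddb1, Ercc3 and Ercc6 rose and Ddb2 fell, 5 of 10 beside 23% of all genes and 1 of 10 beside 17.2%. None was a DEG, beside 24.3% of all genes, although 7 of the 10 had an unadjusted p under 0.05 in limma. The threshold of 0.58 decided this count, since Ddb2 and Ercc2 were just inside it, and the count was 3 without unstressed Trp53-/- replicate 2, 2 without irradiated replicate 1 and 1 without irradiated replicate 2. The median log2 fold change of the 10 genes was 0.33, beside 0.02 for all genes.

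Ercc2 had 19.4 and 19.7 RPKM unstressed and 31.7 and 27.0 RPKM irradiated in Trp53-/- B cells (log2 fold change 0.57, adjusted p = 0.0016 in limma). Ercc6 had 20.3 and 18.9 RPKM unstressed and 26.3 and 26.5 RPKM irradiated, with a log2 fold change of 0.42 (adjusted p = 0.0014 in limma). Ddb2 went from 19.6 and 18.8 RPKM to 12.8 and 12.5 RPKM (log2 fold change -0.58, adjusted p = 0.00084 in limma). All 3 genes thus had irradiated and unstressed samples apart in both genotypes. Exons of Ercc2 overlap those of 2 annotated genes on the other strand. Gm17574 shares 1025 bases, or 24.6% of the Ercc2 exons, and is not among the genes measured, so its part in the Ercc2 value could not be tested. Klc3, a kinesin light chain, shares 744 bases, or 17.8%, and was at 2.68 RPKM or less in every sample.

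Ercc1, which pairs with Ercc4 to cut on the 5′ side, had 13.9 and 16.2 RPKM unstressed and 19.2 and 23.4 RPKM irradiated in Trp53-/- B cells. Its log2 fold change was 0.48 (limma adjusted p = 0.022), and it did not pass without unstressed replicate 1 (0.38, adjusted p = 0.16) or irradiated replicate 2 (0.35, adjusted p = 0.15). Its exons share 106 bases, or 3.41%, with those of Cd3eap on the other strand, and Cd3eap, a subunit of RNA polymerase I, went from 11.3 and 13.02 RPKM to 42.3 and 46.2 RPKM in the same samples. The part of the shared stretch in the Ercc1 value was not tested. Ercc4, which has no such overlap, had 12.7 and 11.9 RPKM unstressed and 9.51 and 11.6 RPKM irradiated (log2 fold change -0.21, 95% confidence interval -0.51 to 0.08).

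The difference between genotypes in the response was tested itself, as an interaction in the same fit. In B cells it was largest for Ercc5, at 1.88 ± 0.12 on the log2 scale (SE, adjusted p = 7.3e-07 in limma), the only DEG of the 10, beside 12% of all genes and beside 8.14% that passed as higher. Ddb1 was the only other member to pass, at -0.30 (adjusted p = 0.034 in limma), on the side where 10.6% of all genes passed, its rise being smaller in Trp53+/+ than in Trp53-/- cells. That call was lost when any of 7 samples was left out, unstressed Trp53-/- replicate 1 or 2, irradiated Trp53-/- replicate 1, unstressed Trp53+/+ replicate 1, 2 or 3, or irradiated Trp53+/+ replicate 1 (-0.24 to -0.30, adjusted p = 0.054 to 0.16). For Ddb2 the difference was 0.07 (95% confidence interval -0.21 to 0.35) and for Ercc6 it was -0.0026 (-0.22 to 0.21), so neither gene's response differed detectably by genotype. The wider intervals of Ercc1 (-0.81 to -0.01) and Ercc4 (-0.02 to 0.70) leave room for moderate differences, with adjusted p of 0.14 and 0.17 in limma. For Ercc1, the difference passed without irradiated Trp53+/+ replicate 4 (-0.52, adjusted p = 0.027), which at 19.7 RPKM was far above the other 3 samples of its group.

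**Figure D2:**
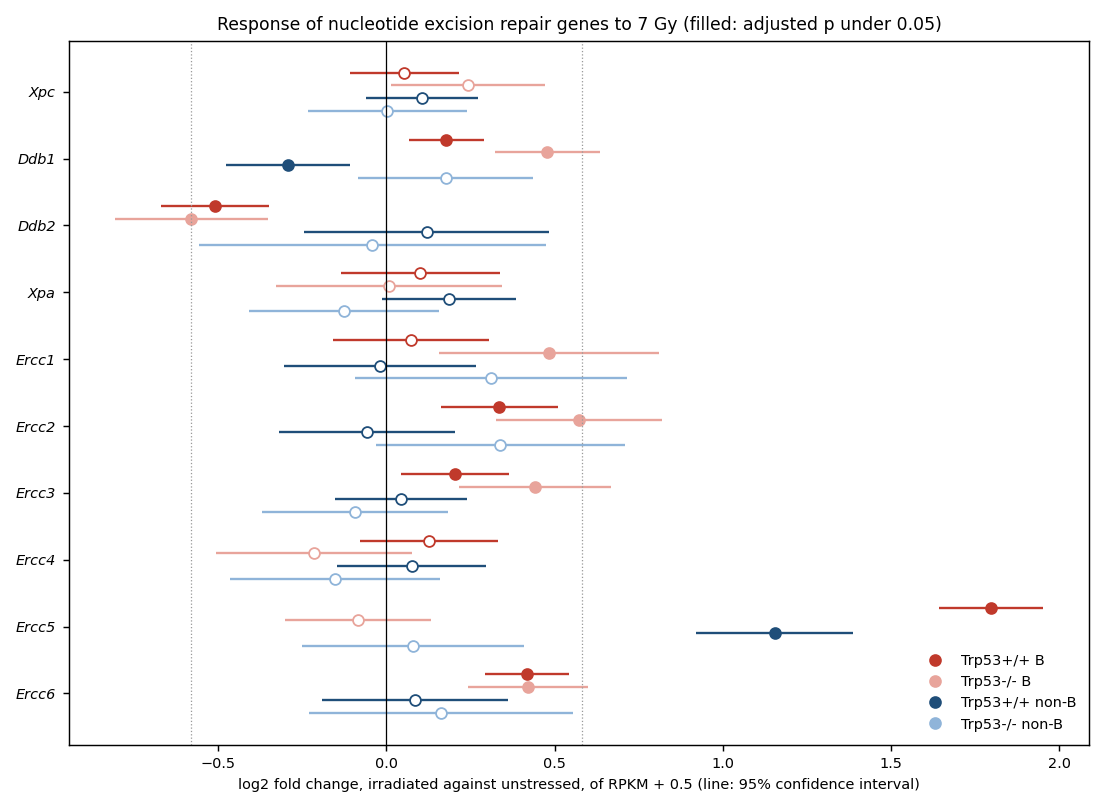
Log2 fold change of RPKM + 0.5 (horizontal axis) between irradiated and unstressed samples for the 10 repair genes, with 95% confidence intervals as lines, in both cell types and genotypes. Filled points passed an adjusted p of 0.05 in limma and dotted lines mark 0.58; the points of Ercc5 at 1.80 and 1.15 are both from Trp53+/+ cells, and its Trp53-/- intervals span 0.

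In Trp53+/+ non-B cells the response of the repair genes was again led by Ercc5, and Ddb1 fell. The fit held 14018 genes, of which 8.72% rose and 9.94% fell, beside 1 of 10 members on each side. Ercc5 was the only DEG, beside 9.85% of all genes. The median log2 fold change of the members was 0.08, beside -0.03 for all genes.

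Ercc5 had 10.8, 12.6, 13.7 and 14.1 RPKM in the unstressed and 25.2, 27.5, 31.2 and 32.7 RPKM in the irradiated Trp53+/+ non-B samples. The groups were far apart, and the log2 fold change was 1.15 ± 0.11 (SE), a 2.23-fold rise (adjusted p = 3.9e-05 in limma). It was the only member with all irradiated samples above all unstressed ones, beside 10% of all genes, and no member had them all below, beside 12.1%. The irradiated samples with the most chemoreceptor genes above 0, replicates 3 and 4 at 51.4% and 35.8%, had the highest Ercc5 values here, at 31.2 and 32.7 RPKM. In B cells, by contrast, irradiated replicate 3 had the highest Ercc5 at 44.5 RPKM and the lowest chemoreceptor share, 7.0%.

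Ddb1 had 58.4, 56.0, 47.6 and 51.6 RPKM unstressed and 40.7, 48.99, 40.7 and 43.8 RPKM irradiated in Trp53+/+ non-B cells, and the groups overlapped in 1 sample of each. Its log2 fold change of -0.29 had an adjusted p of 0.034 in limma. The call was lost without unstressed replicate 1, 2 or 4 or irradiated replicate 1 or 3 (-0.25 to -0.31, adjusted p = 0.053 to 0.096). With the level of chemoreceptor genes as a covariate the value was -0.09 (adjusted p = 0.7 in limma). The mean RPKM of those genes was 0.0881 to 0.1716 in irradiated and 0.068 to 0.0856 in unstressed Trp53+/+ non-B samples, without overlap. That fit therefore cannot separate the covariate from IR. Unstressed replicates 1 and 2, which had the highest Ddb1, also had the highest summed RPKM of 10 erythroid genes, 501 and 495, against 147 and 186 in replicates 3 and 4 and 36.4 to 119 in irradiated samples. The part of this shift in cells in the Ddb1 value was not tested, and fewer cells of a type and less RNA per cell cannot be told apart in these samples.

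Unstressed Trp53+/+ non-B replicates 1 and 2 also stood below replicates 3 and 4 for 7 of the 10 genes, Ddb2, Xpa, Ercc1, Ercc2, Ercc4, Ercc5 and Ercc6, which was so for 32.3% of all genes. They stood above replicates 3 and 4 for 1 member, Ddb1, and for 33.7% of all genes. Such a split was thus common among all genes, in both directions, whereas the members lay mostly on the lower side. The summed RPKM of 14 proliferation genes was 587 and 546 in the first pair and 192 and 226 in the second. Ddb2 gives an example, at 15.2 and 16.5 RPKM against 21.9 and 21.5 RPKM. For this gene the split was wider than the response to IR, whose samples lay at 19.2, 16.6, 21.2 and 24.6 RPKM and overlapped the unstressed ones (log2 fold change 0.12, 95% confidence interval -0.25 to 0.48).

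The other 8 members did not pass in Trp53+/+ non-B cells. Their log2 fold changes lay between -0.06 for Ercc2 and 0.19 for Xpa, and the intervals of Ercc2 (-0.32 to 0.20), Ercc3 (-0.15 to 0.24) and Ercc6 (-0.19 to 0.36) all spanned 0. Xpc had 22.9, 23.2, 21.9 and 24.3 RPKM unstressed and 27.5, 25.3, 23.4 and 23.3 RPKM irradiated, with a log2 fold change of 0.10 (-0.06 to 0.27). A change of the size seen for Ercc5 is thus outside the interval of every other member.

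In Trp53-/- non-B cells no member passed in limma, beside 0.471% of all genes, and none had an unadjusted p under 0.05. Ercc5 had 13.9 and 13.3 RPKM unstressed and 13.7 and 15.1 RPKM irradiated, with overlapping groups (log2 fold change 0.08, 95% confidence interval -0.25 to 0.41). Ercc2 had 19.1 and 16.3 RPKM unstressed and 24.2 and 20.8 RPKM irradiated, which did not overlap, and its log2 fold change was 0.34 (-0.03 to 0.71). With 2 samples per group and a wide spread, a response of the size seen in B cells could not be told from none for this gene.

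The genotype difference in non-B cells passed for Ercc5 alone, at 1.08 ± 0.18 on the log2 scale (SE, adjusted p = 0.0071 in limma). It was the only DEG of the 10, beside 6.55% of all genes, and 3.98% of all genes passed on the higher side. With the level of chemoreceptor genes as a covariate it was 0.91, with an adjusted p of 0.059 in limma. This covariate was higher in every irradiated than in every unstressed Trp53+/+ non-B sample, so the fit cannot separate it from IR. For Ddb1 the difference was -0.47 (95% confidence interval -0.79 to -0.15, adjusted p = 0.073 in limma), and it passed without irradiated Trp53+/+ replicate 2 (-0.53, adjusted p = 0.044). In irradiated non-B cells the T cell gene sum was 294 to 390 RPKM in Trp53+/+ and 510 and 648 RPKM in Trp53-/- samples. That of the B cell genes was 205 to 411 RPKM and 413 and 574 RPKM, and the myeloid, NK cell and erythroid sums overlapped between genotypes. The part of such differences in cells in these values was not tested.

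Without IR no difference between genotypes was detected in any of the 10 genes. No member passed in B cells, beside 0.0506% of all genes, or in non-B cells, beside 0.0428%, and none had an unadjusted p under 0.05 in limma in either. The differences between Trp53-/- and Trp53+/+ cells ranged from -0.14 for Ercc5 to 0.10 for Xpc in B cells and from -0.04 for Xpc to 0.27 for Ddb2 in non-B cells, on the log2 scale. For Ercc5 the interval ran from -0.33 to 0.05 for B cells and from -0.20 to 0.38 for non-B cells.

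The cell types were compared in Trp53+/+ samples in a fit of both together, over 14598 genes. This fit took B and non-B samples as independent, although they can come from the same mice. Unstressed, Ercc6 was higher and Xpc lower in B than in non-B cells, 1 of 10 members beside 17.7% of all genes on the higher side and 1 beside 23.3% on the lower. Neither was a DEG, beside 24.6% of all genes. Xpc had 20.4, 19.8, 17.3 and 18.2 RPKM in B cells against 22.9, 23.2, 21.9 and 24.3 RPKM in non-B cells, without overlap (log2 difference -0.28 ± 0.079 SE, adjusted p = 0.0089 in limma). Ercc6 had 18.3, 19.2, 17.6 and 18.6 RPKM in B cells against 12.1, 13.8, 16.7 and 16.3 RPKM in non-B cells, also without overlap (0.32 ± 0.10 SE, adjusted p = 0.019 in limma). The Ercc6 difference did not pass without B replicate 2 or non-B replicate 1 or 2 (0.24 to 0.30, adjusted p = 0.053 to 0.073).

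The response to IR differed between Trp53+/+ B and non-B cells for Ercc5, Ddb1 and Ddb2. Ercc5 rose by 0.64 ± 0.13 more in B cells on the log2 scale (SE, adjusted p = 0.0019 in limma), and the value was 0.40 (adjusted p = 0.058) after quantile normalization. Ddb1 differed by 0.47 (adjusted p = 0.0028 in limma), having risen in B cells and fallen in non-B cells. Ddb2 differed by -0.63 (adjusted p = 0.015 in limma), having fallen in B cells and not passed in non-B cells, and with Trp53+/+ replicates 3 and 4 alone it was -0.53 (adjusted p = 0.056). The 2 members on the higher side compare with 15.4% of all genes and the 1 on the lower with 12.6%, and Ercc5 and Ddb2 were DEGs, beside 18.8% of all genes. Ercc2, at 0.39 (95% confidence interval 0.08 to 0.71), had an adjusted p of 0.06 in limma and passed without irradiated B replicate 1 or unstressed non-B replicate 1 or 2 (0.44 to 0.47, adjusted p = 0.026 to 0.048). With the replicate number as a block, Ercc2 passed as well (0.39, adjusted p = 0.042 in limma). Ercc6, at 0.33 (0.02 to 0.64, adjusted p = 0.1), passed without unstressed non-B replicate 1 or irradiated non-B replicate 4 (0.42 and 0.41, adjusted p = 0.031 and 0.032).

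Across the 8 groups, the mean Ercc5 level ran from 42.7 RPKM in irradiated Trp53+/+ B cells through 29.1 RPKM in irradiated Trp53+/+ non-B cells to 14.4 RPKM or less in the other 6. The samples of the first group were apart from those of the second and these from all others, and among the remaining 6 groups each overlapped its neighbour in the order. The genes with the most similar pattern were taken by Pearson correlation of the 8 group means of log2(RPKM + 0.5) over 13241 genes, as a description. They were Qpctl (r = 0.995), a glutaminyl cyclase, Tnfrsf10b (r = 0.994), a death receptor, and Cd80 (r = 0.991), a costimulatory ligand. Qpctl had 44.4 to 54.4 RPKM in irradiated Trp53+/+ B samples, 28.4 to 31.1 RPKM in irradiated Trp53+/+ non-B samples and 12.3 RPKM or less elsewhere. With only 8 points, of which 2 stand far above the rest, such a correlation mainly records which groups are high.

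**Figure D3:**
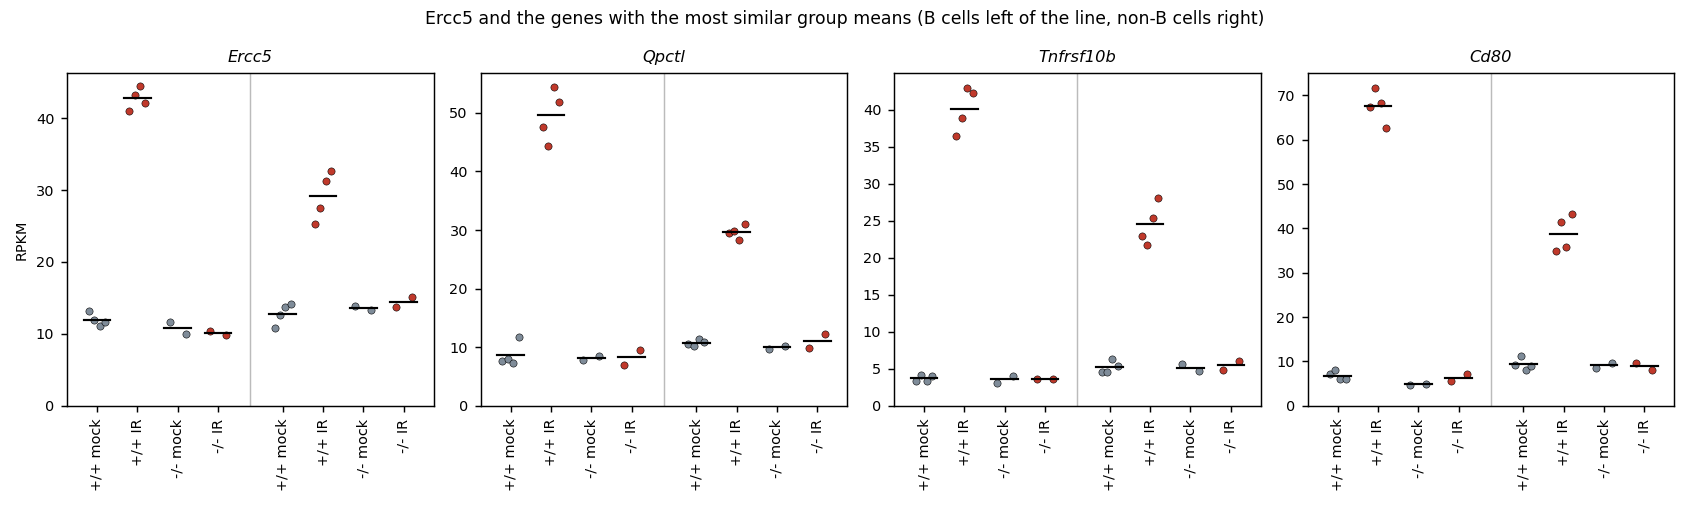
RPKM per sample of Ercc5 and of Qpctl, Tnfrsf10b and Cd80, the genes with the highest correlation to it over the 8 group means, with the vertical axis from 0. Points are samples and bars are group means; in all 4 panels the irradiated Trp53+/+ B samples are highest and the irradiated Trp53+/+ non-B samples second.

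The promoter windows of 3 members are shown because these genes responded in different ways, Ercc5 in Trp53+/+ cells alone by the tested difference, and Ercc2 and Ercc6 in B cells of both genotypes. The letters are the 250 bases before the start of the gene in RefSeq on GRCm38.p6, all on the plus strand, at chr1:44147494-44147743 for Ercc5, chr7:19381767-19382016 for Ercc2 and chr14:32513271-32513520 for Ercc6. Capitals mark matches to CCAAT (the CCAAT box), GGGCGG (the GC box) or TGCGCA (the core of the NRF1 motif) on either strand.
Ercc5: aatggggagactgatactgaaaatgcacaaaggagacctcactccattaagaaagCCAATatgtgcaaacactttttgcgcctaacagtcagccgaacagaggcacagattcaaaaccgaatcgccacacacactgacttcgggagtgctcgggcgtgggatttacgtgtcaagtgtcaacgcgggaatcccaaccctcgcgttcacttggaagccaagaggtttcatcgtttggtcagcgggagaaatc
Ercc2: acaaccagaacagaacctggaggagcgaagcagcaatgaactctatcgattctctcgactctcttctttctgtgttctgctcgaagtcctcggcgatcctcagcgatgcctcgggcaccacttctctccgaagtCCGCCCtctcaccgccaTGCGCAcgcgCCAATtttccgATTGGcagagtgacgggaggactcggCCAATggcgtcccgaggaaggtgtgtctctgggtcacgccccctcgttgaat
Ercc6: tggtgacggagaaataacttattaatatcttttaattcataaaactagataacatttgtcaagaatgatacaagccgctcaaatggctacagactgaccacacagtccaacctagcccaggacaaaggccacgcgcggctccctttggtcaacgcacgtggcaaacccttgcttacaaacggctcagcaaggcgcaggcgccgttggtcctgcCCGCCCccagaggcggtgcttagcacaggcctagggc
CCAAT was found once in Ercc5, 3 times in Ercc2 and not in Ercc6, and in 33.9% of all 32851 windows. GGGCGG was found once each in Ercc2 and Ercc6 but not in Ercc5, and in 32.7% of windows. TGCGCA was found once, in Ercc2, and in 6.43% of windows. The p53 half-site consensus was searched as well, on both strands and without a mismatch, and was found in none of the 7 members matched to a window by symbol (Xpc, Ddb2 and Ercc3 were not) and in 7.13% of all windows. No match says only that these letters are not in the 250 bases searched. The windows of Ercc5, Ercc2 and Ercc6 held 14, 21 and 13 CG dinucleotides, beside a median of 6 over all windows.

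The wider pathway was described with 43 further genes in 5 lists, by function, all of which were tested in each cell type. In Trp53+/+ B cells 11 of the 43 rose, beside 25.4% of all genes, and 11 fell, beside 25.8%. Of these 3 and 5 were DEGs, beside 24.7% of all genes in both directions together, so none of the shares stood apart from that of all genes. In Trp53-/- B cells 25 of the 43 rose, beside 23% of all genes, and 3 fell, beside 17.2%. There 11 were DEGs, all higher. Beside them stand 24.3% of all genes in both directions together, and 53.8% of those DEGs were higher. In Trp53+/+ non-B cells 1 rose, beside 8.72% of all genes, and 13 fell, beside 9.94%. Of these 1 and 5 were DEGs, beside 9.85% of all genes in both directions together. In Trp53-/- non-B cells none passed in limma, beside 0.471% of all genes, and 6 had an unadjusted p under 0.05. Of the other 8 TFIIH subunits, 5 rose and 1 fell in Trp53+/+ B cells, where 25.4% and 25.8% of all genes did. All 8 rose in Trp53-/- B cells, beside 23% of all genes, and the median log2 fold change there was 0.52, beside 0.02 for all genes.

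The list of 18 genes for gap filling and ligation, the last steps of repair, held the largest changes. Polk, a polymerase that also copies past damage, had 8.98, 9.68, 8.90 and 9.12 RPKM in unstressed and 58.9, 62.2, 65.4 and 61.5 RPKM in irradiated Trp53+/+ B cells. In Trp53+/+ non-B cells it had 7.25, 7.90, 8.21 and 8.01 RPKM unstressed and 36.7, 37.3, 44.5 and 49.5 RPKM irradiated. These are log2 fold changes of 2.69 and 2.34, and in Trp53-/- samples Polk stayed between 6.43 and 9.29 RPKM in both cell types. The genotype difference was 2.68 (adjusted p = 1.6e-08 in limma) for B cells and 2.27 (adjusted p = 0.0002) for the non-B cells. Polk and Ercc5 were thus the 2 pathway genes on these lists that rose as DEGs in both Trp53+/+ cell types.

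Of the same 18 genes, 3 rose and 6 fell in Trp53+/+ B cells, where 25.4% and 25.8% of all genes did, and 1 rose and 8 fell in Trp53+/+ non-B cells, where 8.72% and 9.94% did. The DEGs with the largest falls were replication factors. Pold1, the catalytic subunit of polymerase delta, had 41.1, 43.7, 38.6 and 43.2 RPKM in unstressed and 22.5, 22.0, 24.5 and 25.8 RPKM in irradiated Trp53+/+ B cells (log2 fold change -0.80), and its log2 fold change was -1.15 in Trp53+/+ non-B cells. Lig1, the ligase of replication, fell in both, with log2 fold changes of -0.84 in Trp53+/+ B cells and -1.396 in Trp53+/+ non-B cells. Rfc1, the large subunit of the clamp loader, fell by 0.84 in Trp53+/+ B cells, and Rfc4, a small subunit, fell by 1.19 in Trp53+/+ non-B cells. Marker genes moved with these falls in both Trp53+/+ cell types. The summed RPKM of the proliferation genes was 137 to 257 unstressed and 128 to 150.4 irradiated in B cells. In non-B cells it was 192 to 587 unstressed and 116 to 206 irradiated, and the groups overlapped in both cell types. The summed RPKM of the erythroid genes was 64.6 to 140.1 unstressed and 49.02 to 55.4 irradiated in B cells, beside the non-B values given above. The part of either in the falls was not tested. In Trp53-/- B cells the summed RPKM of the proliferation genes was 153 and 156 unstressed and 213.96 and 248.8 irradiated.

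Pole3, a small subunit of polymerase epsilon, and Gtf2h4, a TFIIH subunit, were the other DEGs with the largest rises in Trp53+/+ B cells. Pole3 had 32.1, 20.7, 23.6 and 24.0 RPKM unstressed and 48.2, 42.2, 42.1 and 44.8 RPKM irradiated (log2 fold change 0.83). Gtf2h4 had 14.5, 11.8, 11.6 and 12.1 RPKM unstressed and 17.7, 18.97, 19.8 and 21.3 RPKM irradiated (log2 fold change 0.62). Both rose in Trp53-/- B cells too, by 1.07 and 1.22 on the log2 scale. The difference between genotypes was -0.60 for Gtf2h4 (adjusted p = 0.014 in limma) and -0.25 for Pole3 (95% confidence interval -0.65 to 0.16).

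**Figure D4:**
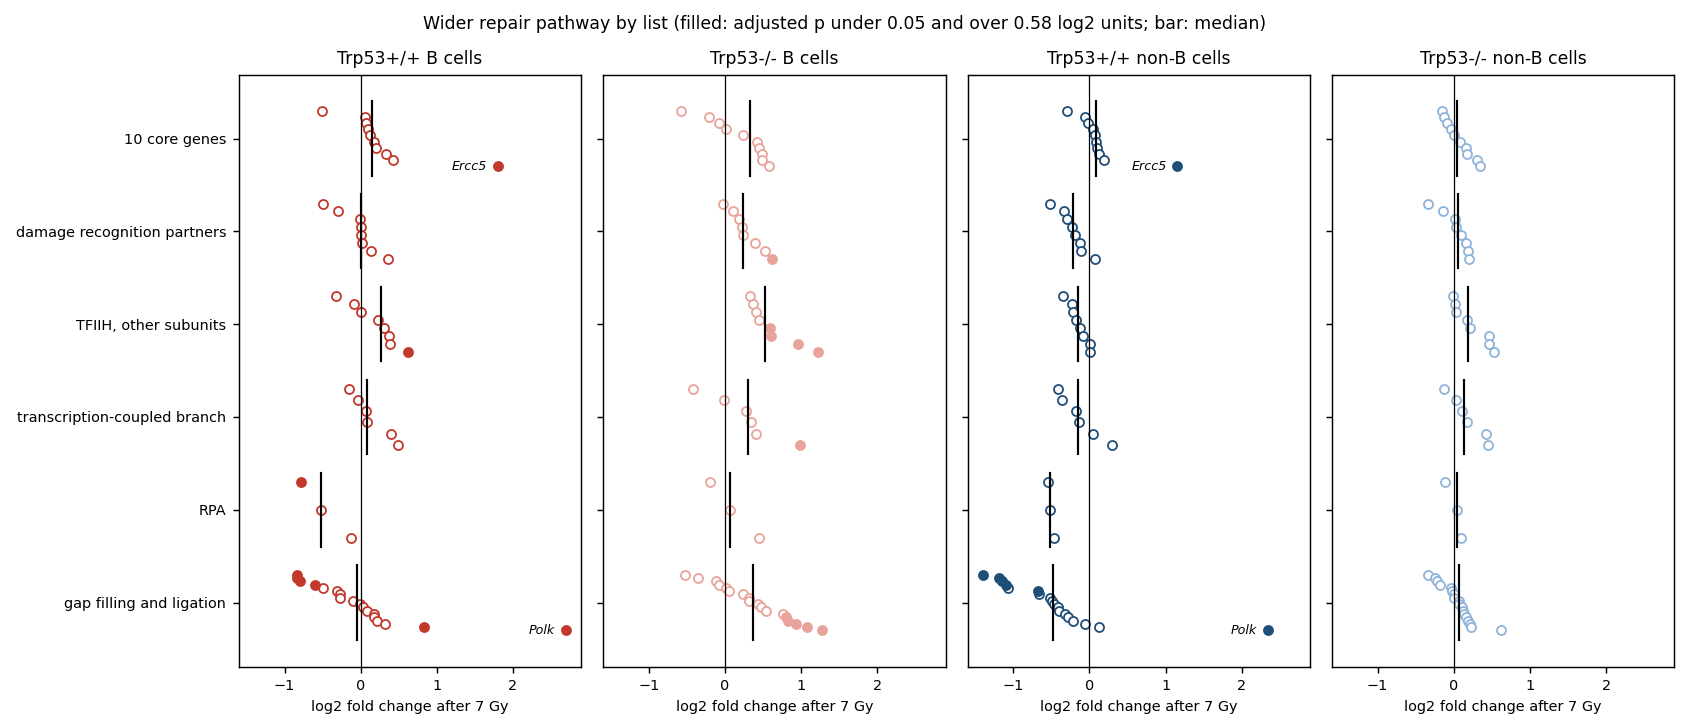
Log2 fold change after 7 Gy (horizontal axis) of the 10 core repair genes and of 43 further genes in 5 lists, in 4 panels by genotype and cell type. Each point is a gene, filled where it is a DEG, and vertical bars are list medians; Polk at 2.69 and 2.34 and Ercc5 at 1.80 and 1.15 stand apart in the Trp53+/+ panels and not in the Trp53-/- ones.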

How the data were processed

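RNA was taken from splenic B and non-B cells of 24 samples, depleted of ribosomal RNA and sequenced. The authors masked read bases of low quality, aligned the reads to mm9 with TopHat (version 2.0.8 of TopHat2 in the submitters' processing notes), removed all but 1 copy of duplicated reads, assigned them to UCSC genes with featureCounts 1.4.5 and deposited RPKM over the reads mapped to exons, in 1 file per sample. Read counts were not used here. The 10 genes, the 5 pathway lists (43 genes) and the marker lists were written with earlier results of these data known, so none of their counts is independent support. Groups came from the sample labels.

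Values were tested with limma 3.58.1 in R 4.3.3 on log2(RPKM + 0.5), the prior variance following mean expression, without covariates, since RPKM does not suit the authors' count-based DESeq2 test. A gene was tested where at least 1 Trp53+/+ sample of the fit had over 1 RPKM, and p-values were adjusted over all of them. There was 1 fit per cell type (12 samples) and 1 over the 16 Trp53+/+ samples. The study's methods count 4 Trp53+/+ and 2 Trp53-/- mice per condition, so the samples of a group were taken as separate mice. In the paper the non-B cells were the flow-through of the B cell column, and its count of mice covers both. B and non-B samples can therefore share mice, but which ones do is not given in the labels. The fit over the 16 Trp53+/+ samples did not model shared mice, so its SE and adjusted p do not allow for them. No 2 samples held identical values. Same-numbered unstressed and irradiated Trp53+/+ non-B samples deviated together over genes (r = 0.155 to 0.33), every pair above 0.1. Differently numbered samples within replicates 1 and 2 (r = 0.182 and 0.316) and within 3 and 4 (r = 0.325 and 0.132) did so too. The numbers therefore do not show pairs, and the main fits used none. In B cells r for equal numbers was 0.01 to 0.091.

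Named genes were all 10 members, of the pathway lists at most the 3 DEGs with the largest rise and the 3 with the largest fall per Trp53+/+ response, the 3 genes most like each DEG member by group means, and Trp53, Cdkn1a and Mdm2; Acp2, Cd3eap and Klc3 were added after their values were seen because their exons overlap members. Mdm2 lay between 70.8 and 106 RPKM in irradiated Trp53+/+ samples and between 26.6 and 33.2 RPKM in all others. Depth was estimated as the number of reads at which low RPKM values times exonic length (GENCODE on NCBIM37, 91.9% of genes) came nearest to whole reads. Since 58.2% to 73.2% of those values lay within 0.1 of a whole read, counts were not recovered and depths are approximate. Coordinates of genes are from that annotation, and promoter windows are from RefSeq on GRCm38.p6. The fits were tested on simulated data. Alternatives were pseudocounts of 0.1 and 1, other filters, median-ratio scaling, quantile normalization, a replicate block, a chemoreceptor covariate, Trp53+/+ samples fitted alone and leaving out each sample, and those added after seeing the data were Trp53+/+ replicates 1 and 2 or 3 and 4 alone and a crossed block.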

Additional observations from a re-analysis of the deposited data

Results flagged for a closer look

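Of the 40 sets of 4 Trp53+/+ samples (10 genes in 4 groups), 3 held a sample far from the others of its group by Dixon's test, and chance flags about 1 in 20 such sets. They were Ddb1 in irradiated B cells (replicate 3 at 65.1 RPKM) and Ercc1 in unstressed (replicate 1 at 16.2 RPKM) and irradiated B cells (replicate 4 at 19.7 RPKM).

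The response to IR differed between genotypes in B cells for Ercc5 (1.88 on the log2 scale) and Ddb1 (-0.30), and in non-B cells for Ercc5 (1.08), with an adjusted p under 0.05 for the interaction in limma. It differed between Trp53+/+ B and non-B cells for Ercc5 (0.64), Ddb1 (0.47) and Ddb2 (-0.63). Every irradiated Trp53+/+ sample was on the same side of all unstressed ones for Ercc5 in both cell types and for Ddb1 and Ddb2 in B cells, and the non-B samples of Ddb1 and Ddb2 overlapped.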

How the results depend on the processing

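Each comparison was recomputed under the alternatives that apply to it. Of the 1860 values of single members, 1800 kept their side of the threshold, 40 lost it and 20 gained it, and none that passed reversed. The number of members with an adjusted p under 0.05 moved by over 1.5 times in the following cases. The response of Trp53+/+ B cells gave 3 with replicates 1 and 2 alone instead of 6. The genotype difference in B cells gave 1 with median-ratio scaling or replicates 3 and 4 alone and 5 with replicates 1 and 2 alone instead of 2, and 1 to 3 when a sample was left out. The response of Trp53+/+ non-B cells gave 1 instead of 2 with median-ratio scaling, the chemoreceptor covariate, Trp53+/+ samples fitted alone and either pair of replicates, and 1 to 2 when a sample was left out. The genotype difference in non-B cells gave 0 instead of 1 with the chemoreceptor covariate, both by adjusted p and as DEGs, and 1 to 2 when a sample was left out. The unstressed cell types gave 1 to 2, and the cell type difference 3 to 5, when a sample was left out. DEGs among the members in Trp53-/- B cells were 2 with a pseudocount of 0.1, 1 with median-ratio scaling, quantile normalization or the chemoreceptor covariate and 0 to 3 without 1 sample, instead of 0. Those of the cell type difference were 1 with quantile normalization or replicates 1 and 2 alone and 1 to 2 without 1 sample, instead of 2. Non-overlapping members in non-B cells were 2 instead of 1 after median-ratio scaling. Where a sample or a pair of samples was left out, fewer samples were tested, and otherwise the cause was not tested.

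Over all genes, DEGs in Trp53-/- non-B cells were 62, but 36 without a filter or after quantile normalization and 0 to 10 without 1 Trp53-/- sample. Leaving out 1 sample gave as few as 1060 instead of 1656 for the genotype difference in B cells, 918 instead of 1381 in Trp53+/+ non-B cells and 306 instead of 918 for the genotype difference there. Between unstressed genotypes, DEGs were 7 in B cells but 13 without Trp53+/+ replicate 4 or with replicates 1 and 2 alone, and 6 in non-B cells but 3 without Trp53-/- replicate 1 or with Trp53+/+ replicates 3 and 4 alone and 49 with replicates 1 and 2 alone. With the chemoreceptor covariate, DEGs fell from 1381 to 347 in Trp53+/+ non-B cells and from 918 to 288 for the genotype difference there. The covariate did not overlap between irradiated and unstressed Trp53+/+ non-B samples, so these fits cannot separate it from IR. The share of DEGs that were higher went from 54.7% to 68.4% with median-ratio scaling for the genotype difference in B cells, from 43.5% to 58.3% with quantile normalization in Trp53-/- non-B cells, and from 30.0% to 49.1% with quantile normalization between unstressed cell types. With the replicate block, DEGs were 17 instead of 62 in Trp53-/- non-B cells and 11 instead of 6 between unstressed genotypes of non-B cells. Among members, the block added Ercc2 to the cell type difference (0.39, adjusted p = 0.042) and changed no other call. Same-numbered Trp53-/- non-B samples had r = -0.264, and with their numbers crossed the block gave 152 DEGs in these cells and 2 members instead of 1 for the genotype difference.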
